A study of Homo sapiens with 6 samples.

Results

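Class I histone deacetylases (HDACs) and the corepressor proteins that carry them were examined in Kasumi-1 cells with and without the HDAC inhibitor I3. The set held 9 of the 29810 genes in the table, namely HDAC1, HDAC2, HDAC3, HDAC8, NCOR1, SIN3A, SIN3B, TBL1XR1 and RCOR1. A gene was a member when its Ensembl identifier mapped to one of these symbols, and the rule used no measured value. Kasumi-1 is an established acute myeloid leukemia (AML) cell line that carries the t(8;21) translocation, which fuses RUNX1 to RUNX1T1 (also called ETO). Polyadenylated RNA was sequenced in 6 libraries, 3 from control cells and 3 from cells incubated with 0.25 μM I3, all labelled as 48 h. The methods describe controls given the same concentration of the solvent DMSO. All 6 libraries came from the same line, and the labels do not say whether replicates were separate cultures (the methods state in general that experiments were repeated), so the p-values measure the spread between these libraries, which may be technical. The comparison addresses whether the RNA levels of the class I enzymes and of their partner proteins differed after exposure to I3. The paper describes I3 as an HDAC inhibitor and names no class.

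HDACs remove acetyl groups from lysines of histones, and class I enzymes do so mostly in the nucleus as the catalytic part of multiprotein complexes. HDAC1 and HDAC2 work in the SIN3, CoREST, NuRD and MiDAC complexes, HDAC3 works in the NCOR complex, and HDAC8 acts without such a complex. In t(8;21) AML the ETO portion of the fusion protein is known to recruit NCOR1 and SIN3A with their deacetylases to RUNX1 target genes.

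The promoters of the closely related genes HDAC1 and HDAC2 are shown because the order of their levels turned with the length that reads were divided by. Each sequence is the 250 bases before the RefSeq start of the gene in assembly GRCh38.p14, written 5′ to 3′ on the coding strand, for HDAC1 at chr1:32291833-32292082 (plus strand) and for HDAC2 at chr6:113971149-113971398 (minus strand). The gene interval of HDAC2 in GENCODE release 29, given with its levels, begins farther upstream, and the window lies inside it. Capitals mark the GC box GGGCGG or its complement CCGCCC and the CCAAT box CCAAT or its complement ATTGG, searched on both strands with overlapping matches counted.
HDAC1: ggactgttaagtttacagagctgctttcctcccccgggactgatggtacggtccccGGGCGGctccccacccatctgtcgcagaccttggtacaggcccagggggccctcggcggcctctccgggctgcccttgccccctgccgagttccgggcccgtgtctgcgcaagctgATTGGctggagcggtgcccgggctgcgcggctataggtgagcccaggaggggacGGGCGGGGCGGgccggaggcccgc
HDAC2: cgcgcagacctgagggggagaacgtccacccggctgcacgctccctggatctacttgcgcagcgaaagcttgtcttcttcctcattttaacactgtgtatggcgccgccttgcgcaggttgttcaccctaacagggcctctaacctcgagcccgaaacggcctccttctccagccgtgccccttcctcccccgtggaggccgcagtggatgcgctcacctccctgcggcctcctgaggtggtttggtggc
The HDAC1 window held 3 GC boxes, the last pair of them overlapping, and 1 CCAAT box on the minus strand. Neither motif was found in the HDAC2 window. Of 35116 windows of the same length, 42.6% held a GC box and 32% a CCAAT box. The GC content was 71.6% in the HDAC1 window, with 21 CpG dinucleotides, and 63.2% in the HDAC2 window, with 18. A match of letters describes the sequence and does not show binding.

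Levels were deposited as FPKM, that is fragments divided by the exon length of the gene and by the fragments counted in the library. Reads rebuilt from FPKM and exon length gave a depth of 17663222, 17798687 and 17500298 in control replicates 1 to 3 and of 17818412, 17794812 and 18193387 in I3 replicates 1 to 3. All 10 Kasumi-1 markers were above 0.5 FPKM in every library. The lowest was CD38 at 0.607 to 1.17 FPKM and the highest the granule enzyme MPO at 7740 to 8612 FPKM. RUNX1T1, which Kasumi-1 cells transcribe mainly through the fusion, had 16.5, 14.1 and 14.7 FPKM in control and 16.5, 14.9 and 17.0 FPKM in I3 libraries. Markers of other cells were low, with 5 T cell markers summing to 2.24 to 3.28 FPKM per library (CD8A highest), 4 B cell markers to 7.21 to 8.41 (CD79B), 5 erythroid markers to 1.22 to 1.72 (KLF1) and 5 mature monocyte markers to 7.03 to 8.94 (CSF1R). Of the monocyte markers, S100A8 was listed at 0 in every library and CD14 in all but control replicate 3, at 0.030 FPKM. S100A9, from the same list, had 1.95 to 4.86 FPKM. Epithelial and stromal markers summed to 28.2 to 31.6 FPKM through EPCAM, and KRT18 was listed at 0. A mean of at least 0.5 FPKM was also reached by 1 T cell, 3 B cell, 1 erythroid, 2 monocyte and 1 epithelial marker. That level alone therefore does not tell cell types apart.

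The 6 libraries fell into 2 kinds that did not follow the treatment. The deviation of a gene from its mean over the libraries fell with the GC content of its transcripts in control replicate 1 and I3 replicates 1 and 3 (Spearman's rho across 12841 genes of -0.31, -0.23 and -0.45). It rose with GC content in control replicates 2 and 3 and I3 replicate 2 (rho of 0.45, 0.34 and 0.26). These are called GC-negative and GC-positive libraries below. The difference between treatments within each kind is given for the members whose GC kinds did not overlap, and for HDAC3. The GC-negative kind holds 1 control and the GC-positive kind 1 I3 library, so each difference within a kind has a single library on one side. A difference between GC kinds is not a difference between treatments, and its cause was not tested.

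No member passed the test for a difference between I3 and control cells. That test was limma on FPKM values and stood in for the DESeq test of the paper. At the thresholds given next, the paper reports genes both higher and lower with I3. The absence of calls here therefore does not show that I3 changed no gene. The fit across 12960 genes with a mean of at least 0.5 FPKM (limma with Benjamini-Hochberg adjustment, called at an adjusted p under 0.05 and an absolute log2 fold change of at least 0.58) called 0 of the 9 members, beside 0% of all tested genes. None of the 9 passed an unadjusted p of 0.05 either, beside 4.93% of tested genes (639 genes; 2.08% higher and 2.85% lower), and none had I3 libraries that all lay on one side of the control libraries, beside 9.7% of tested genes (5.06% higher and 4.64% lower). The fitted log2 fold change was above 0 for 7 members and below 0 for 2, with a median of 0.016 beside 0.011 over all tested genes. Both the log2 fold change and its 95% interval lay within 0.58 of 0 for all 9 members, as they did for 97.2% and 81.6% of tested genes. In a bulk sample fewer cells of a type and less RNA per cell cannot be told apart, and this holds for every level given here.

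Among the catalytic subunits, HDAC1 (ENSG00000116478, chr1:32292086-32333635) was the most abundant in FPKM. Its level was 43.6, 44.0 and 46.8 FPKM in control replicates 1 to 3 and 43.6, 47.1 and 45.4 FPKM in I3 replicates 1 to 3, from 3053 to 3321 reads. The groups overlapped fully, at 44.8 ± 1.74 and 45.3 ± 1.77 FPKM (SD, n = 3 each), and HDAC1 was the steadiest of the 4 enzymes, with a coefficient of variation of 3.54% over the 6 libraries. The log2 fold change was 0.016 (95% interval -0.11 to 0.15, limma adjusted p = 0.998).

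HDAC2 (ENSG00000196591, chr6:113933028-114011308), the paralogue that shares most complexes with HDAC1, had 18.7, 15.5 and 16.1 FPKM in control and 17.3, 16.1 and 17.8 FPKM in I3 libraries. The groups overlapped, at 16.8 ± 1.72 and 17.1 ± 0.873 FPKM, and the log2 fold change was 0.027 (95% interval -0.17 to 0.22, limma adjusted p = 0.998). Its libraries separated by GC kind instead. The GC-negative libraries lay at 17.3 to 18.7 FPKM and the GC-positive ones at 15.5 to 16.1 FPKM. Within the GC-negative libraries I3 minus control was -0.093 on the log2 scale, and within the GC-positive ones it was 0.027.

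HDAC3 (ENSG00000171720, chr5:141620876-141636870), the enzyme that NCOR1 binds and activates, had 11.2, 14.6 and 12.7 FPKM in control and 11.0, 14.3 and 12.7 FPKM in I3 libraries. The 2 groups spanned nearly the same range, and replicate 2 was the highest library in each. HDAC3 had the widest spread of the enzymes, with a coefficient of variation of 11.7%. Its log2 fold change of -0.015 carried the widest interval among them (-0.30 to 0.27, limma adjusted p = 0.999). The GC kinds of HDAC3 overlapped, and GC-negative minus GC-positive was -0.24 on the log2 scale. I3 minus control was 0.080 within the GC-negative libraries and 0.068 within the GC-positive ones. Both are opposite in sign to the fitted value.

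HDAC8 (ENSG00000147099, chrX:72329516-72573199) was the least abundant enzyme of the class in FPKM. It had 4.15, 3.97 and 4.40 FPKM in control and 4.42, 4.22 and 4.06 FPKM in I3 libraries. The highest and the lowest values came from different groups, and the log2 fold change was 0.019 (95% interval -0.16 to 0.19, limma adjusted p = 0.998). The number of reads behind HDAC8 is uncertain. The exon length of 22986 bases in GENCODE release 29 gave no whole reads for it. Lengths from 500 to 30000 bases were searched at a tolerance of 0.01 read. The shortest length with whole reads, 5379 bases, gave 380 to 424 reads per library. Longer lengths could also give whole reads, and these read counts are therefore the smallest possible in that search. HDAC8 shares 1193 exon bases with the readthrough gene AL133500.1 on the same strand, which makes its level uncertain.

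The plot of levels by library shows the same overlap of the groups for all 9 genes.

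**Figure D1:**
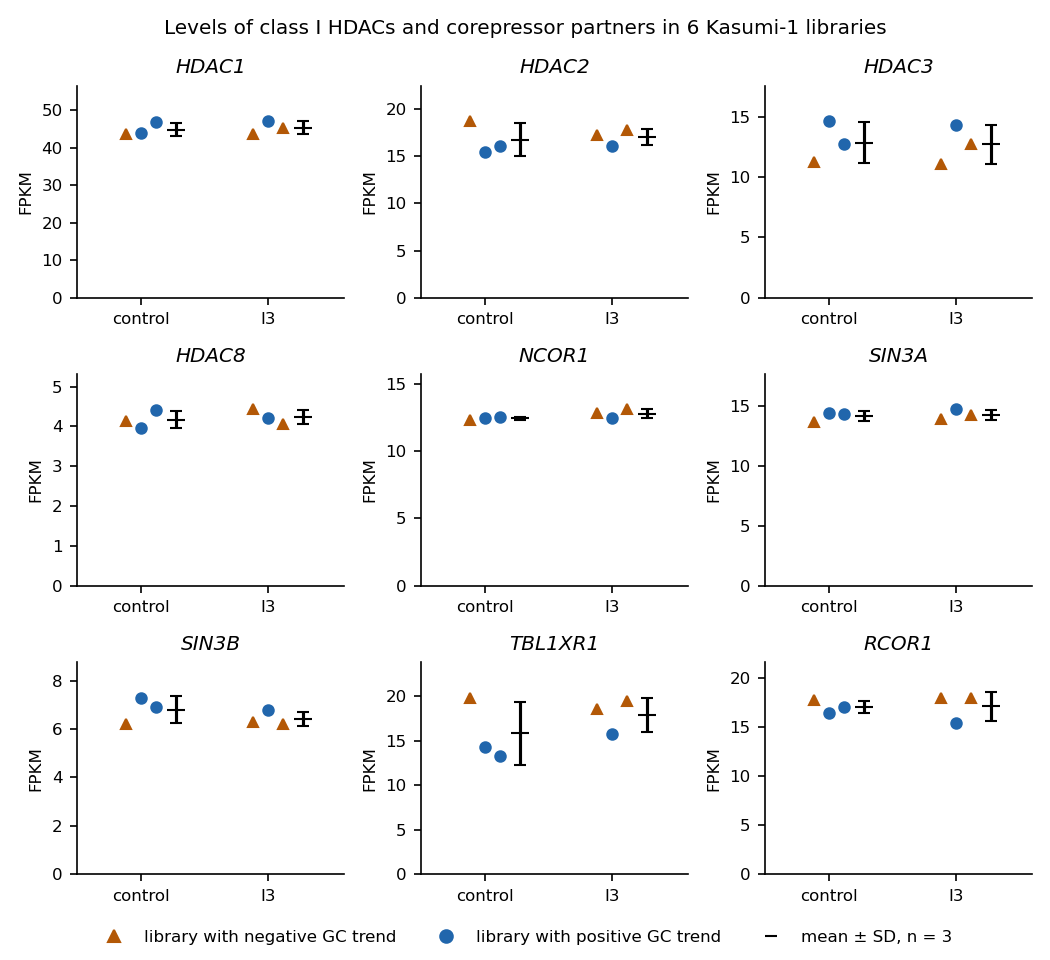
Levels of the 9 members in FPKM (vertical axes from 0, each with its own scale) in 3 control and 3 I3 libraries, with brown triangles for libraries of negative GC trend, blue circles for libraries of positive GC trend, and bars for the mean ± SD of each group. I3 and control points overlap in every panel, while triangles lie above circles for HDAC2, TBL1XR1 and RCOR1 and below them for SIN3A and SIN3B.

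Among the scaffolds, NCOR1 (ENSG00000141027, chr17:16029157-16218185), which holds the HDAC3 complex together and docks it to nuclear receptors, was the steadiest member of all 9. It had 12.3, 12.5 and 12.5 FPKM in control and 12.8, 12.4 and 13.1 FPKM in I3 libraries, a coefficient of variation of 2.33%. The median coefficient was 7.46% over the 6660 genes with a mean of 4 to 50 FPKM. Of the I3 libraries, replicates 1 and 3 lay above all controls and replicate 2 lay among them. The log2 fold change was 0.039 (95% interval -0.088 to 0.17, limma adjusted p = 0.998).

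SIN3A (ENSG00000169375, chr15:75369379-75455842), the scaffold of the SIN3 complex, had 13.7, 14.4 and 14.4 FPKM in control and 13.9, 14.7 and 14.2 FPKM in I3 libraries. Its paralogue SIN3B (ENSG00000127511, chr19:16829400-16880353) had 6.19, 7.30 and 6.89 FPKM in control and 6.27, 6.77 and 6.22 FPKM in I3 libraries. In both genes the groups overlapped and every GC-negative library lay below every GC-positive one. The log2 fold change was 0.014 for SIN3A (95% interval -0.12 to 0.15) and -0.074 for SIN3B (95% interval -0.26 to 0.11), with limma adjusted p = 0.998 for both. Within the GC-negative libraries I3 minus control was 0.041 for SIN3A and 0.012 for SIN3B on the log2 scale, and within the GC-positive ones it was 0.032 and -0.063.

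RCOR1 (ENSG00000089902, chr14:102592661-102730576), the CoREST scaffold that joins HDAC1 or HDAC2 to the histone demethylase KDM1A, had 17.7, 16.5 and 17.0 FPKM in control and 18.0, 15.4 and 17.9 FPKM in I3 libraries. The I3 libraries spanned the control range on both sides, and the group means were 17.1 FPKM in each. The log2 fold change was 0.00022 (95% interval -0.18 to 0.18, limma adjusted p = 1.000). The GC-negative libraries all lay above the GC-positive ones, and I3 minus control was 0.018 within the former and -0.12 within the latter, on the log2 scale.

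TBL1XR1 (ENSG00000177565, chr3:177019340-177228000), a subunit of the NCOR complex that takes part in exchanging corepressors for coactivators, varied most among the members. It had 19.8, 14.3 and 13.3 FPKM in control and 18.5, 15.8 and 19.4 FPKM in I3 libraries. Control replicate 1 was the highest library of all and the other controls were the lowest, so the groups overlapped. The means were 15.8 ± 3.52 and 17.9 ± 1.91 FPKM (SD, n = 3 each), with a log2 fold change of 0.19, the largest of the 9 (95% interval -0.17 to 0.55, limma adjusted p = 0.998). The exact permutation test gave p = 0.4, where 3 against 3 libraries cannot go below 0.1.

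The spread of TBL1XR1 followed the GC kind of the library. The 3 GC-negative libraries lay at 18.5 to 19.8 FPKM and the 3 GC-positive ones at 13.3 to 15.8 FPKM, a log2 difference of 0.41 that exceeded the fitted difference between treatments. I3 minus control was -0.063 within the GC-negative libraries and 0.19 within the GC-positive ones, on the log2 scale. Without control replicate 1 the log2 fold change was 0.36 with an unadjusted p of 0.0096, but the limma adjusted p was 0.425, and in that fit 11.0% of all tested genes had an unadjusted p under 0.05. After the libraries were corrected for their GC trend the log2 fold change of TBL1XR1 was 0.16, and with the GC kind of the library as a term in the fit it was 0.062 (limma adjusted p of 0.964 and 0.902), the latter below the 0.074 of HDAC3 in the same fit.

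The plot of log2 fold changes sets the 9 members beside 3 paralogues of their corepressors.

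**Figure D2:**
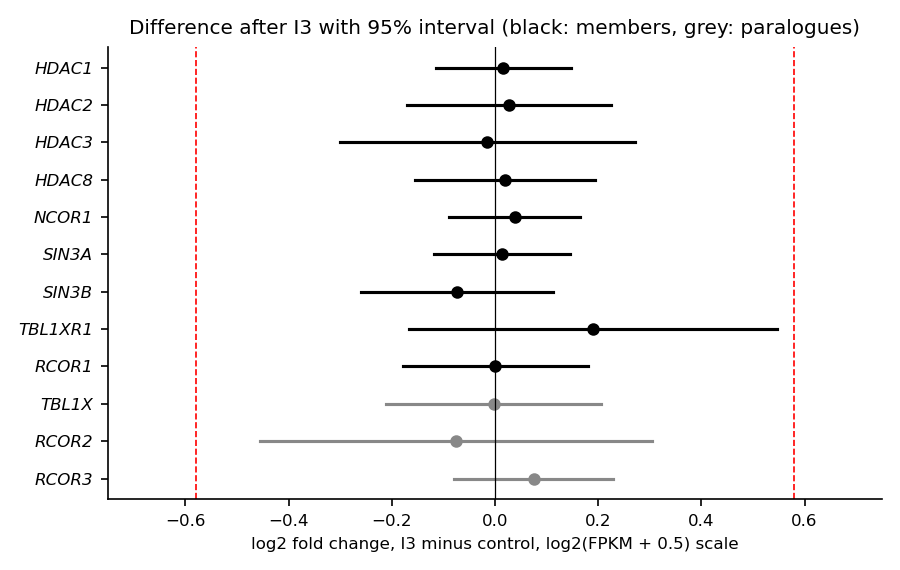
Log2 fold change, I3 minus control, on the log2(FPKM + 0.5) scale (points) with its 95% interval from limma (bars) for the 9 members (black) and 3 paralogues (grey), with red dashed lines at 0.58 and -0.58. Every interval crosses 0 and lies inside the dashed lines, and TBL1XR1 is the point farthest from 0.

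GC kinds were apart without overlap for 5 of the 9 members, beside 30.3% of tested genes. HDAC2, TBL1XR1 and RCOR1 were higher in GC-negative libraries, and their transcripts had a median GC content of 41.4%, 45.6% and 42.9%. SIN3A and SIN3B were lower there, at 54.5% and 59.1% GC. Across the 9 members the difference between GC kinds had a correlation with transcript GC content of r = -0.72, and across 48 other subunits of the same complexes r = -0.69. The GC kinds were defined by the trend of gene levels with GC content, so the sign of such a correlation was set by that definition, and both values only describe where these genes lie.

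**Figure D3:**
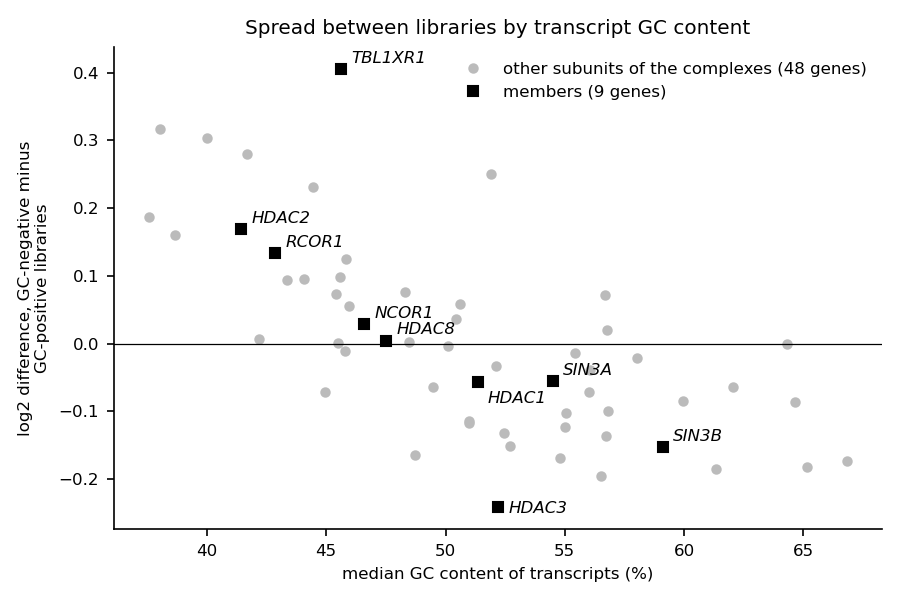
Log2 difference between GC-negative and GC-positive libraries (vertical axis, means of 3 libraries each) against the median GC content of the transcripts of each gene in percent (horizontal axis), for the 9 members (black squares, named) and 48 other subunits of their complexes (grey circles). HDAC2, RCOR1 and TBL1XR1 lie above 0 at lower GC content, and HDAC1, SIN3A, SIN3B and HDAC3 lie below 0 at higher GC content. NCOR1 and HDAC8 lie near 0, at 0.029 and 0.0043.

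In order of mean FPKM over all 6 libraries, HDAC1 (45.1) stood first, followed by RCOR1 (17.1), HDAC2 (16.9), TBL1XR1 (16.9), SIN3A (14.2), HDAC3 (12.8), NCOR1 (12.6), SIN3B (6.61) and HDAC8 (4.20). Only 3 of the 8 neighbouring pairs were apart in all libraries. HDAC1 exceeded RCOR1 by 2.64 times, NCOR1 exceeded SIN3B by 1.91 times, and SIN3B exceeded HDAC8 by 1.57 times. The 6 genes from RCOR1 to NCOR1 overlapped with their neighbours. Among tested genes HDAC1 stood at percentile 93.7, HDAC2 at 80.5, HDAC3 at 74.3 and HDAC8 at 44.4 by mean FPKM.

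This order depended on the length by which reads were divided. FPKM used all exons of a gene, which came to 3963 bases for HDAC1 and 15461 bases for HDAC2, although both coding sequences are alike in length, at 1446 and 1464 bases. HDAC2 collected more reads than HDAC1 in each library, with a ratio of 1.675, 1.373 and 1.341 in control and 1.547, 1.334 and 1.531 in I3 libraries. Scaled to reads in the library and kilobases of coding length (reads per 1000000 reads and kilobase), a measure set after the FPKM values were seen, HDAC2 was first at 179 ± 13.0 and HDAC1 stood at 124 ± 4.37 (SD over 6 libraries), with no overlap between them. On this scale TBL1XR1 had 127 ± 20.9, RCOR1 72.9 ± 4.39, SIN3A 46.3 ± 1.24, HDAC3 46.1 ± 5.40, NCOR1 26.5 ± 0.618 and SIN3B 16.6 ± 1.13. HDAC8 had 18.1 ± 0.784 at the shortest length that gave whole reads, and its value and place would be higher with a longer one. Which exons Kasumi-1 cells use was not tested, so HDAC1 led by 1 length and HDAC2 by the other.

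**Figure D4:**
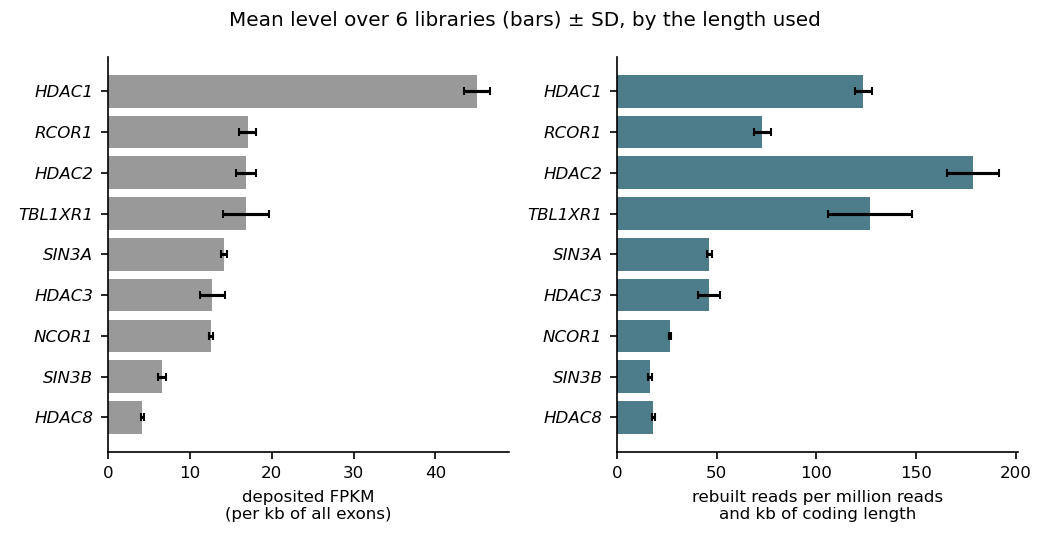
Mean level of the 9 members over 6 libraries (bars from 0, error bars SD), on the left as deposited FPKM, per kilobase of all exons, and on the right as rebuilt reads scaled to the reads in the library and the kilobases of coding length. HDAC1 is the longest bar on the left at 45.1 and HDAC2 on the right at 179, while SIN3B and HDAC8 are lowest on both, with HDAC8 on the right drawn from its smallest possible read count.

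Within the classical HDAC family, the 4 class I enzymes made up 79.5 ± 0.722% of the summed FPKM of HDAC1 to HDAC11 in control and 80.4 ± 0.391% in I3 libraries (SD, n = 3 each). The share ran from 78.7% to 80.8%, and the groups overlapped. HDAC1 alone made up 56.1% to 58.5% of the class I sum, HDAC2 19.7% to 24.1%, HDAC3 14.4% to 18.7% and HDAC8 5.07% to 5.80%. These shares are on the FPKM scale. By rebuilt reads and coding length, HDAC2 made up 46.1% to 52.7% of the class I sum, HDAC1 31.8% to 35.4%, HDAC3 10.8% to 14.9% and HDAC8 4.64% to 5.27%. These rest on the smallest possible read count of HDAC8, and a larger one would raise its share and lower the others. Of the enzymes outside class I, which deacetylate many proteins of the cytoplasm as well as histones, HDAC6 had a mean of 6.13 FPKM, HDAC7 5.27, HDAC4 3.95, HDAC5 3.54, HDAC9 0.716 and HDAC11 0.215. HDAC10 stood at 0.021 FPKM and shares 2763 exon bases with MAPK12 on the same strand, so its level is uncertain. HDAC6, the tubulin deacetylase, had 6.25, 6.91 and 6.09 FPKM in control and 5.94, 5.97 and 5.61 FPKM in I3 libraries. All I3 values of HDAC6 lay below the controls, by -0.12 on the log2 scale, which did not pass the test (limma adjusted p = 0.998). Of the 5 tested enzymes outside class I it was the 1 with groups apart, beside 9.7% of tested genes.

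The balance between paired subunits was compared as a ratio within each library. HDAC2 to HDAC1 was 0.429, 0.352 and 0.344 in control and 0.396, 0.342 and 0.392 in I3 libraries. SIN3A to SIN3B was 2.20, 1.97 and 2.08 in control and 2.21, 2.17 and 2.29 in I3 libraries, and TBL1XR1 to TBL1X was 3.04, 1.94 and 2.03 against 3.00, 2.33 and 2.59. The p-values were adjusted over 5 ratios, and in the 4 given here the groups overlapped each time. The log2 difference, I3 minus control, was 0.012 for HDAC2 to HDAC1 (exact permutation p = 1, adjusted 1), -0.056 for HDAC3 to NCOR1 (exact permutation p = 0.7, adjusted 0.875), 0.093 for SIN3A to SIN3B (exact permutation p = 0.2, adjusted 0.5) and 0.20 for TBL1XR1 to TBL1X (exact permutation p = 0.5, adjusted 0.833).

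The paralogues of the corepressor members were measured in the same fit. TBL1X had 6.53, 7.36 and 6.56 FPKM in control and 6.18, 6.75 and 7.50 FPKM in I3 libraries, RCOR3 had 6.36, 5.97 and 6.25 against 6.31, 6.51 and 6.85, and RCOR2 had 0.827, 0.698 and 1.06 against 0.697, 0.842 and 0.823. In all 3 paralogues the groups overlapped, and none passed the test or an unadjusted p of 0.05.

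Of 53 other subunits and partners of the NCOR, SIN3, CoREST, NuRD and MiDAC complexes, 52 were in the table and 48 were tested. None was called. At an unadjusted p under 0.05, 2 were higher (OGT and GATAD2B) and 2 lower (MBD2 and CDK2AP1), or 8.33% beside 4.93% of tested genes, and the median log2 fold change was -0.0030. The groups were apart for 7 of the 48 (14.6%), 4 higher and 3 lower, beside 9.7% of tested genes.

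In the SIN3 complex, where HDAC1 and HDAC2 are the enzymes, 11 of 18 tested subunits had a log2 fold change above 0, as had 7026 of the 12960 genes tested. RBBP4, a histone chaperone also found in NuRD, was the most abundant, at 34.2 ± 1.11 FPKM in control and 35.1 ± 0.799 in I3 libraries. OGT, which attaches N-acetylglucosamine to proteins, had 20.9, 19.5 and 18.5 FPKM in control and 21.3, 22.1 and 22.1 FPKM in I3 libraries, so that the groups were apart, but its limma adjusted p was 0.998. ING2, which reads methylated histone H3, had 11.5, 9.73 and 13.3 FPKM against 10.6, 8.28 and 8.71, with overlap and the same adjusted p from limma.

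In the NuRD complex, which couples HDAC1 and HDAC2 to nucleosome remodelling, 5 of 11 tested subunits lay above 0 and 6 below. CHD4, the remodelling ATPase, was the most abundant, at 92.6 ± 7.35 FPKM in control and 93.5 ± 4.76 in I3 libraries. Its level is uncertain, since it shares 5964 exon bases with AC006064.6 on the same strand and gave no whole reads. No whole reads were rebuilt either for TBL1X, KDM1A, HDAC6, KAT6A, KAT6B and the markers MPO and KLF1. The exon length behind their FPKM, and behind the level of the TBL1XR1 to TBL1X ratio, is therefore not known. MBD2, which brings the complex to methylated DNA, had the smallest adjusted p of all 48 partners. It had 9.27, 9.01 and 8.95 FPKM in control and 8.27, 7.36 and 7.56 FPKM in I3 libraries. The groups were apart, at a log2 fold change of -0.22 (95% interval -0.38 to -0.064), and the limma adjusted p was 0.822. CDK2AP1, another NuRD subunit, had 7.01, 7.86 and 7.26 FPKM against 6.43, 6.67 and 5.85 (limma adjusted p = 0.970), and it shares 513 exon bases with AC068768.1 on the same strand.

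In the CoREST complex around RCOR1, GFI1, a transcriptional repressor that recruits it, was the most abundant at 127.9 ± 3.39 FPKM in control and 124.4 ± 3.86 in I3 libraries. KDM1A, which removes methyl groups from histone H3 lysine 4, had 53.6, 54.8 and 54.5 FPKM in control and 49.2, 52.9 and 46.8 FPKM in I3 libraries. All I3 values of KDM1A lay below the controls, but the limma adjusted p was 0.998. ZMYM2, a zinc finger subunit, had 5.64, 5.03 and 4.98 FPKM against 6.10, 5.43 and 6.04, with overlap.

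The NCOR list had 5 tested partners, 2 with a log2 fold change above 0 and 3 below. ZBTB33 (Kaiso), which brings NCOR1 to methylated DNA, had 12, 9.05 and 9.13 FPKM in control and 11.9, 9.95 and 11.2 FPKM in I3 libraries, and like TBL1XR1 it was higher in every GC-negative library. GPS2, a core subunit with TBL1XR1 and HDAC3, was listed at 0 to 0.018 FPKM, or at most 1 read per library, and shares 1380 exon bases with AC026954.2 on the same strand, so its level is uncertain. In MiDAC, a mitotic deacetylase complex, DNTTIP1 had 19.7 ± 1.96 FPKM in control and 20 ± 1.70 in I3 libraries and TRERF1 had 12.2 ± 0.149 and 12.8 ± 0.795, with overlap in both.

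The genes that dock corepressors in t(8;21) cells and the enzymes that oppose HDACs gave 0 calls as well. RUNX1, with reads from the intact and the fused allele, had 34.0, 30.6 and 32.5 FPKM in control and 35.0, 33.1 and 34.6 FPKM in I3 libraries, with overlap. Among the ETO family, CBFA2T3 had 4.05, 4.68 and 4.48 FPKM against 3.48, 3.58 and 3.89, and CBFA2T2 had 4.71, 4.99 and 4.83 against 5.44, 5.25 and 5.42. CBFA2T3 was lower and CBFA2T2 higher in all I3 libraries, with limma adjusted p-values of 0.942 and 0.998. These were 2 of the 5 genes of that list with groups apart, beside 9.7% of tested genes, and CBFA2T3 was the 1 with an unadjusted p under 0.05, beside 4.93%. Of 10 histone acetyltransferases, 8 had a log2 fold change above 0, beside 7026 of 12960 tested genes, and none had an unadjusted p under 0.05, beside 4.93% of tested genes. EP300, the most abundant of them, had 18.0 ± 1.84 FPKM in control and 18.2 ± 0.667 in I3 libraries, KAT6A had 13.2 ± 0.669 and 14.0 ± 0.476, and KAT6B had 13.1 ± 0.196 and 13.6 ± 0.305. The groups of KAT6B were apart, with a log2 fold change of 0.057 (limma adjusted p = 0.998).

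The genes whose levels ran most like those of the class I enzymes over the 6 libraries were sought by Pearson's r among the 6641 or 6642 other genes with a mean of at least 5 FPKM. For HDAC1 they were GRN (r = 0.997) and USP13 (0.996), for HDAC2 SLF2 (0.999) and SEC24A (0.995), for HDAC3 LRRC14 (0.994) and FAM171A1 (0.991), and for HDAC8 RNF122 (0.974) and SSR4 (0.937). These are the highest values of a search over all those genes in 6 libraries that differ in their GC trend, and they are given as descriptions.

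Reads of an overlapping gene on the opposite strand could have been counted for several members, since the library kit was strand-specific but how counting treated strand was not stated in the sources read. The overlap of exons was 426 bases for HDAC3, 321 bases for NCOR1 with PIGL, 206 bases for SIN3A, 181 bases for TBL1XR1 with its antisense gene, and 69 bases for HDAC2.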

How the data were processed

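The authors sequenced stranded libraries of polyadenylated RNA from Kasumi-1 cells and deposited FPKM values, without counts of reads, in 1 table with a column for each library. Per the labels, the submitters' processing notes name Trimmomatic, HISAT2, Cufflinks and HTSeq and the build hg38, without versions, and no annotation is named in the sources read. The authors tested differences with DESeq. The labels and methods give 48 h while a figure legend gives 72 h, and the name of the deposited table writes the compound as I13. All 6 value columns were used (0 were left out).

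Of 29810 gene identifiers, 29703 matched GENCODE release 29. Whole reads were rebuilt from FPKM and exon length at a tolerance of 0.1 read for 95.72% of 26519 genes above 0, and 90 others had no length. Between libraries of 1 group these reads differed by more than sampling noise (chi-square per degree of freedom of at least 4.58 over 12323 genes), and none was treated as a repeat deposit of another. The members' reads per library ran from 380 (the smallest possible, for HDAC8) to 5115 for HDAC2.

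Differences between 3 I3 and 3 control libraries were tested by limma 3.58.1 (R 4.3.3), with lmFit and a trended eBayes and no covariate. The values were log2(FPKM + 0.5) of the 12960 genes whose mean FPKM reached 0.5. Fold changes are on that scale, which understates changes of low genes. For ratios, exact permutation tests (two-sided) were run with scipy 1.17.1. Python 3.11.15 with pandas 2.3.3 handled tables, and matplotlib 3.10.9 drew plots.

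The members and gene lists were chosen with earlier results of these data known. Genes named are the members, 3 paralogues, HDAC4 to HDAC11 and, per partner list, the gene with the highest mean FPKM and the 2 with the smallest p, besides the 2 genes most correlated with each class I enzyme and the marker genes by level. GATAD2B and GPS2 are named outside this rule, after their values were seen. The library values and test given for HDAC6 also go beyond the rule, which named HDAC4 to HDAC11 by level only. One gene under this rule, and the ratio that uses it, is not reported here. The promoters of HDAC1 and HDAC2 were likewise chosen after the values were seen. The alternatives were other pseudocounts, filters and scalings, a GC correction, voom on the rebuilt reads, a replicate block and leaving out each library. A term for the GC kind of the library was added after seeing the data.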

Additional observations from a re-analysis of the deposited data

How the results depend on the processing

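No member was called under the alternatives with all libraries, where HDAC8 was not tested at a mean of at least 5 FPKM. Of 107 member values there, 100 kept their direction, the log2 fold changes ran from -0.086 to 0.20, and the smallest limma adjusted p was 0.832. The 107 include the replicate block, the other filters on mean FPKM and eBayes without its trend. Those settings leave the log2 fold change of a gene unchanged, so its direction was fixed there in advance. The sign turned where it was close to 0. With the GC correction the log2 fold change was -0.024 for HDAC2, -0.0016 for HDAC8 and -0.042 for RCOR1, and -0.033 for the HDAC2 to HDAC1 ratio. With the GC kind of the library as a term it was -0.033 for HDAC2, 0.074 for HDAC3 and -0.050 for RCOR1, and TBL1XR1 went from 0.19 to 0.062 without a change of sign. With median-of-ratios scaling RCOR1 had -0.013, and with quantile normalization the HDAC2 to HDAC1 ratio had -0.014. Over all genes, the median of the log2 fold changes ran from -0.0012 to 0.024 in these alternatives.

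Genes called numbered 0 under each alternative with all libraries, voom on the rebuilt reads included. Without I3 replicate 1 the count was 2 (EBPL and CHCHD10, both lower), without I3 replicate 2 it was 1 (ENSG00000265982, lower) and without control replicate 1 it was 1 (SNORD101, higher), none of them a member and all named after their values were seen. The 639 genes at an unadjusted p under 0.05 became 302 at a mean of at least 5 FPKM, where 6642 genes were tested, and 1038 with no minimum, where 26609 were.

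Leaving out each library in turn gave log2 fold changes of -0.011 to 0.048 for HDAC1, -0.026 to 0.11 for HDAC2, -0.11 to 0.079 for HDAC3, -0.012 to 0.054 for HDAC8, 0.022 to 0.058 for NCOR1, -0.010 to 0.033 for SIN3A, -0.13 to -0.024 for SIN3B, 0.082 to 0.36 for TBL1XR1 and -0.037 to 0.073 for RCOR1. The ratios ran from -0.048 to 0.11 (HDAC2 to HDAC1), -0.17 to 0.044 (HDAC3 to NCOR1), 0.053 to 0.13 (SIN3A to SIN3B) and 0.080 to 0.40 (TBL1XR1 to TBL1X). Neighbouring pairs of members apart in level numbered 3 to 5 (5 without control replicate 2), the class I share was 79.7% to 80.2%, genes called 0 to 2, and genes at an unadjusted p under 0.05 461 to 1417 (1417 without control replicate 1).

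The deviations of control and I3 libraries with the same replicate number had r across genes of 0.063, 0.15 and -0.024. The 0.15 of replicate 2 was the highest of all pairs, but control replicate 1 was highest with I3 replicate 3 (0.10). Both libraries of replicate 2 are GC-positive, so these values do not settle whether a shared number marks a pair. With the replicate block 0 genes were called, 856 had an unadjusted p under 0.05, and the log2 fold changes of the members were the same as without it.

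Limits are the spread between 3 libraries a group and the GC trend of the libraries. An interval that holds 0 does not show equal levels. Flags for single libraries far from their group were not computed, since groups of 3 are too small. RNA levels say nothing of enzyme activity or protein.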
